A study of Mus musculus with 20 samples.

Results

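CD8 T cells of BIT mice and of β5t-KO mice were compared in both chains, α and β, of their T cell receptor (TCR), the genotypes with β5t present most widely and with no β5t. The comparison took 8 of the 20 labelled mice, 4 BIT mice (replicates 1, 2, 4 and 5) and 4 β5t-KO mice (replicates 1 to 4). In BIT mice the β5t (Psmb11) coding sequence replaces that of β5i (Psmb8), so that they make β5t where other mice make β5i and make no β5i, and their own Psmb11 gene is kept. β5t-KO mice lack β5t and keep β5i. WT mice (4 libraries) carry both subunits and β5i-KO mice (5 libraries) lack β5i, and their values are given only beside a result. All mice were male, 9 to 12 weeks old and on a C57BL/6 background, and 1000000 TCRβ-high CD4- CD8+ cells were sorted per individual mouse. The labels name lymph nodes as the tissue, whereas the protocol names lymph nodes and spleens. The BIT results of the study came from 1 of several mouse lines unless stated otherwise, and the labels do not name the line. BIT replicate 3 (455 TCRα clonotypes) was set aside as very shallow, and β5t-KO replicate 5 (24 TCRα clonotypes) as failed.

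β5t is the catalytic subunit that defines the thymoproteasome of cortical thymic epithelial cells, the cells whose peptides on MHC class I select CD8 T cells in the thymic cortex, and β5i is its counterpart in the immunoproteasome of hematopoietic and medullary epithelial cells. Each TCRα chain is made by joining a TRAV gene to a TRAJ gene and each TCRβ chain by joining TRBV, TRBD and TRBJ genes. The joined ends are trimmed by nucleases, and terminal deoxynucleotidyl transferase adds untemplated N nucleotides between them. The junction encodes CDR3, the loop that lies over the peptide, while the other loops are encoded within V. TCRα genes join repeatedly in 1 cell, from the V-proximal 5′ TRAJ genes towards the 3′ TRAJ genes, and the process ends at positive selection.

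A clonotype was a distinct combination of V gene, J gene and in-frame CDR3 amino acid sequence, counted once per mouse however many molecules carried it. β5t-KO mice 1 to 4 held 6444, 622, 7656 and 1661 TCRα clonotypes and 6480, 384, 6581 and 1900 TCRβ clonotypes. BIT mice 1, 2, 4 and 5 held 26272, 9362, 18472 and 22895 TCRα clonotypes and 34508, 13569, 19766 and 30117 TCRβ clonotypes. Depth therefore moved with genotype, and β5t-KO 2 was the shallowest of the 8 in clonotypes. BIT 4 stood apart from the other BIT mice before any comparison was made. A cysteine lay in the centre of 0.763% of its TCRα and 0.627% of its TCRβ clonotypes, against at most 0.167% and 0.103% in the other BIT mice. Libraries shared 2.59% to 11.8% of the in-frame nucleotide clones of the smaller library in TCRα and 0.254% to 2.83% in TCRβ. Clones in a mouse share their source, so all tests were made over mice. Genotype cannot be checked from these libraries, which do not measure Psmb8 or Psmb11.

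The TCRα clonotypes with the largest differences in share of molecules are shown first because the same protein sequence was built from several different junctions. The clonotype whose share of molecules was highest in β5t-KO relative to BIT mice joined TRAV12-1 to TRAJ23 with the CDR3 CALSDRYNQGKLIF. It made up 5.56%, 5.40%, 4.28% and 6.09% of the TCRα molecules of β5t-KO mice 1 to 4. In BIT mice 1, 2, 4 and 5 it made up 0.0177%, 0.0339%, 0.0560% and 0.0155%. It was the largest TCRα clonotype of each of the 4 β5t-KO mice, and its mean share was 0.817% in WT and 0.165% in β5i-KO mice. The molecules were spread over 8, 5, 9 and 7 nucleotide sequences in β5t-KO mice 1 to 4 and over 7, 2, 6 and 5 in the BIT mice. The sequences below are nucleotide CDR3 sequences from 5′ to 3′ with N nucleotides in capitals, and they show that the same CDR3 arose with different N additions from an untrimmed V end.
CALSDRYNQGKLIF, no N nucleotide: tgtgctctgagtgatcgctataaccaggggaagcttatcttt
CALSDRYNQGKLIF, 1 N nucleotide: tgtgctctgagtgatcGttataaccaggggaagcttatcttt
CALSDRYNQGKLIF, 2 N nucleotides: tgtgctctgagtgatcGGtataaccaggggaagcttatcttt
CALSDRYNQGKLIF, 3 N nucleotides: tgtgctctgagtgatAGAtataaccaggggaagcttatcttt
Each of these 4 sequences was found in 4 of 4 β5t-KO mice. The second largest excess in β5t-KO mice was CALSDRYSNNRLTL, also of TRAV12-1 but with TRAJ7, at 1.905% ± 0.685 of molecules (SD, n = 4) against 0.0234% ± 0.0102 in the BIT mice (SD, n = 4). Its main sequence had no N nucleotide and was found in 4 β5t-KO mice and in 0 BIT mice.
CALSDRYSNNRLTL, no N nucleotide: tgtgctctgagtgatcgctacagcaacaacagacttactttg
The largest excess in the BIT mice was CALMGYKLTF of TRAV12-1 with TRAJ9, at 0.298%, 0.197%, 0.109% and 0.261% of molecules in BIT mice 1, 2, 4 and 5. It was found in 1 of 4 β5t-KO mice, with 4 molecules. WT mice held 0.298% ± 0.0569 (SD, n = 4). Its V end had lost 4 or 6 nucleotides in the sequences below, whereas that of the CALSDR sequences above had lost 0.
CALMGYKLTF, V trimmed by 4: tgtgctctgatgggctacaaacttaccttc
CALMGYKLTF, V trimmed by 6: tgtgctctcatgggctacaaacttaccttc
These clonotypes were picked by their difference in share of molecules, so that difference is a description with no test. They were not the most abundant of the BIT mice. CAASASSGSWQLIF, the CDR3 of the clonotype with the highest mean share in the BIT mice, is joined to TRAJ22. Over all V genes it made up 0.798% ± 0.0217 of molecules in the BIT and 1.25% ± 0.637 in the β5t-KO mice (SD, n = 4 each), with overlap.

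The start CALSDR of the first 2 clonotypes was also commoner in β5t-KO mice when each clonotype was counted once. It opened 3.06%, 4.82%, 2.86% and 4.15% of the TCRα clonotypes of β5t-KO mice 1 to 4. It opened 1.32%, 1.63%, 1.5% and 1.49% of those of BIT mice 1, 2, 4 and 5, so that the groups did not overlap. Counted by molecules the start made up 12.2% ± 1.92 in the β5t-KO mice (SD, n = 4) and 2.07% ± 0.143 in the BIT mice (SD, n = 4), with 5.30% in WT and 2.798% in β5i-KO mice. It was joined to 41 or 42 J genes in each BIT mouse and to 39, 16, 39 and 26 in β5t-KO mice 1 to 4. That number is limited by how many clonotypes a library holds, and β5t-KO 2 held 622. The 10 largest TCRα clonotypes together held 10.4%, 12.4%, 8.83% and 12.1% of molecules in β5t-KO mice 1 to 4 and 1.70% to 2.26% in the BIT mice. For TCRβ the 10 largest held 1.81% to 10.4% in the β5t-KO mice and 0.513% to 0.790% in the BIT mice. WT mice held 3.46% ± 0.978 (TCRα) and 2.09% ± 2.38 (TCRβ, SD, n = 4 each). β5i-KO mice held 2.23% ± 0.415 and 0.709% ± 0.232 (SD, n = 5 each). The share of the 10 largest depends on how many clonotypes a library holds. The 10.4% was that of β5t-KO 2, with 384 TCRβ clonotypes. Both the CALSDR start and the 10 largest clonotypes were chosen after their values were seen and carry no test.

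J gene usage was compared as the share of clonotypes that use each J gene, with edgeR's quasi-likelihood test over all J genes of the chain. Of 43 TRAJ genes tested, 4 passed the adjusted p threshold of 0.05 (9.3%), with TRAJ52 and TRAJ27 lower and TRAJ12 and TRAJ6 higher in the BIT mice (4.65% in each direction). TMM normalisation called 3, 1 higher and 2 lower. TRAJ52 lies near the 5′ end of the J locus, at position 54402773 to 54402838 on chromosome 14 of GRCm39. It was used by 2.09%, 3.54%, 2.05% and 2.35% of clonotypes in β5t-KO mice 1 to 4. It was used by 1.51%, 1.32%, 1.17% and 1.48% in BIT mice 1, 2, 4 and 5. The lowest β5t-KO mouse was above the highest BIT mouse, and the log2 difference was -0.69 ± 0.13 (SE, edgeR adjusted p = 0.000775). The TRAJ52 call was kept in each of the 22 alternatives, 8 of which left out 1 mouse, with log2 differences from -1.13 to -0.58. WT mice used TRAJ52 in 1.17% ± 0.153 of clonotypes (SD, n = 4) and β5i-KO mice in 1.18% ± 0.109 (SD, n = 5).

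TRAJ6 (chromosome 14, 54450145 to 54450206) and TRAJ12 (54444010 to 54444067) lie towards the 3′ end of the locus. TRAJ6 was used by 1.37%, 1.29%, 1.25% and 1.44% of clonotypes in β5t-KO mice and by 1.8%, 1.75%, 2.44% and 1.68% in the BIT mice. BIT 4 was far above the other BIT mice, yet the groups did not overlap. The log2 difference was 0.53 ± 0.14 (SE, edgeR adjusted p = 0.0236). TRAJ12 was used by 2.90%, 1.77%, 2.53% and 2.77% of clonotypes in β5t-KO mice and by 3.34%, 3.34%, 3.41% and 3.17% in the BIT mice, with a log2 difference of 0.32 ± 0.089 (SE, edgeR adjusted p = 0.0249). TRAJ27 (54429760 to 54429818) fell from 3.45%, 3.86%, 3.47% and 3.37% in β5t-KO mice to 3.07%, 3.04%, 2.56% and 2.94% in the BIT mice, with a log2 difference of -0.26 ± 0.080 (SE, edgeR adjusted p = 0.0382). These 3 differences were smaller than that of TRAJ52 and depended on single mice. Without β5t-KO 3 the calls of TRAJ6 (log2 0.48), TRAJ12 (0.27) and TRAJ27 (-0.26) were lost, each at an edgeR adjusted p of 0.19. Without β5t-KO 1 those of TRAJ6 (0.56, edgeR adjusted p = 0.063) and TRAJ27 (-0.27, edgeR adjusted p = 0.098) were lost, and TRAJ27 was also lost without β5t-KO 2 (-0.25), BIT 4 (-0.20) or BIT 5 (-0.27).

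By position in the locus, 11 of the 13 tested TRAJ genes numbered 19 and below, at the 3′ end, had positive log2 differences (median 0.20, 2 higher and 0 lower past the threshold). Of the 14 genes numbered 40 and above, at the 5′ end, 10 had negative differences (median -0.13, 0 higher and 1 lower). Of the 16 genes numbered 20 to 39, 12 had negative differences (median -0.06, 0 higher and 1 lower), and the median over all 43 was -0.03. The mean distance of the J gene used from the 5′ end of the locus was 33.4, 33.2, 33.5 and 34.4 kb in β5t-KO mice and 34.4, 34.8, 36.7 and 34.5 kb in the BIT mice. The groups touched but did not overlap, and the exact permutation test gave p = 0.0286 (two-sided, n = 4 and 4, adjusted p = 0.0524 over 11 TCRα measures), the smallest p that 4 mice against 4 can give. The difference was 1.48 kb, and 0.937 kb without BIT 4, the mouse farthest from the others. WT mice averaged 35.7 ± 0.728 kb (SD, n = 4) and β5i-KO mice 35.1 ± 0.201 kb (SD, n = 5). Over single genes, the shares of BIT and β5t-KO mice did not overlap for 6 of 43 TRAJ genes (14%), the 4 named above and TRAJ17 and TRAJ50. TRAJ17 was at 2.52% in BIT against 1.92% in β5t-KO mice on average and TRAJ50 at 1.67% against 2.07%, and neither passed the test. In out-of-frame clones edgeR called 0 of 43 TRAJ genes (0%), with 3 (6.98%) at an unadjusted p below 0.05. The β5t-KO mice held only 817, 62, 714 and 207 such clones, so differences of the size seen in frame could be missed there.

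**Figure D1:**
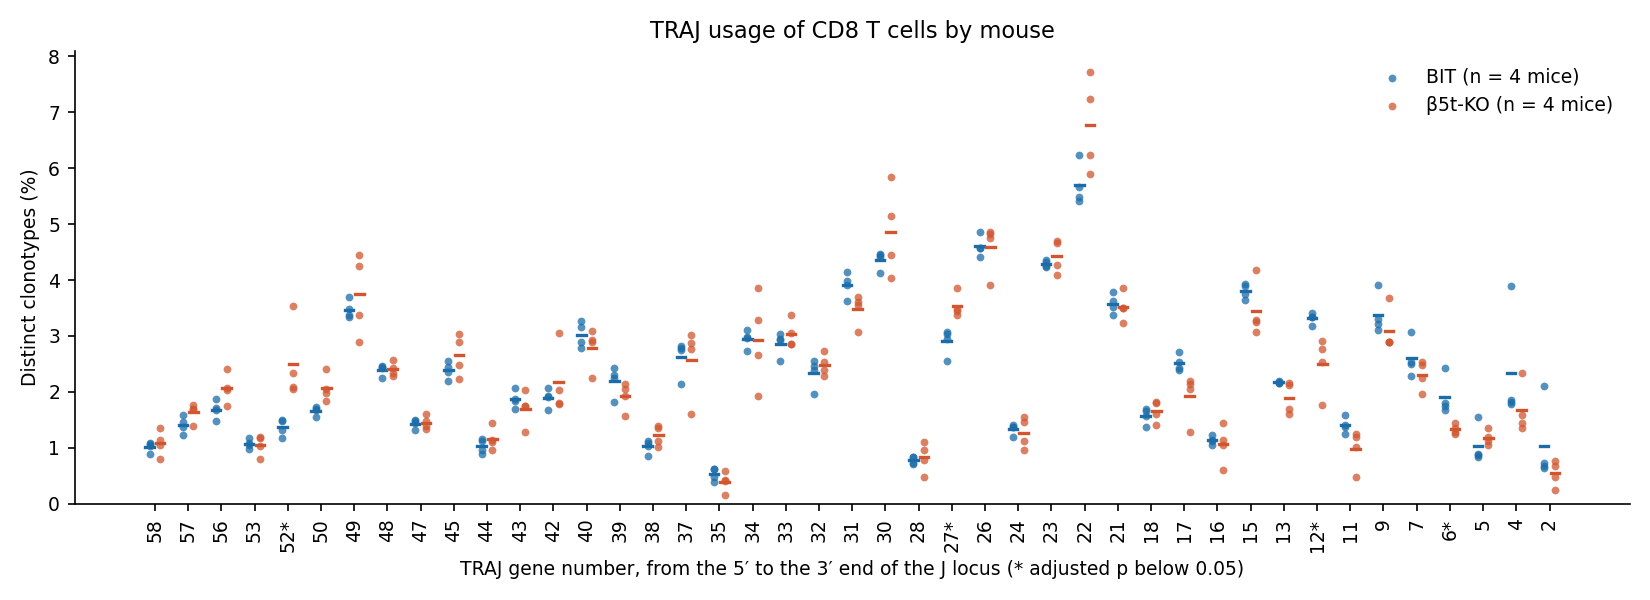
Share of distinct TCRα clonotypes that use each TRAJ gene (vertical axis, %) in each BIT mouse (blue points, n = 4) and β5t-KO mouse (orange points, n = 4), with group means as bars and genes ordered from the 5′ to the 3′ end of the J locus. TRAJ52, at 1.17% to 1.51% in BIT and 2.05% to 3.54% in β5t-KO mice, TRAJ27, TRAJ12 and TRAJ6 are marked with an asterisk (edgeR adjusted p below 0.05), and BIT 4 lies apart at TRAJ6, TRAJ4 and TRAJ2.

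Weighting each clonotype by its molecules called 14 of 43 TRAJ genes (32.6%), 7 higher and 7 lower in the BIT mice. TRAJ52 (log2 -0.99), TRAJ27 (-0.34) and TRAJ12 (0.85) were among them, and TRAJ6 was not (0.47, edgeR adjusted p = 0.0692). The largest fall was that of TRAJ23, from 9.15% to 4.28% of molecules (log2 -1.10, edgeR adjusted p = 1.48e-09), although its share of clonotypes was 4.43% in the β5t-KO mice and 4.29% in the BIT mice. TRAJ23 is the J gene of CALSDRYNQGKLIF. TRAJ9, the J gene of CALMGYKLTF, rose from 2.38% to 4.01% of molecules (log2 0.75, edgeR adjusted p = 5.97e-06), and its clonotype share was not called. TRAJ7, the J gene of CALSDRYSNNRLTL, fell from 3.81% to 2.94% of molecules (log2 -0.37, edgeR adjusted p = 0.0178).

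TRAV–TRAJ pairing was compared next, with TRAV genes grouped by subgroup because near-identical copies of a V gene cannot always be told apart. Of 585 pairs tested, 12 passed (2.05%), 5 higher (0.855%) and 7 lower (1.2%) in the BIT mice, whereas DESeq2 called 3, all of them lower. TRAJ52 took part in 3 of the 7 lower pairs. TRAV17–TRAJ52 made up 0.295%, 0.322%, 0.131% and 0.361% of clonotypes in β5t-KO mice and 0.0837%, 0.0534%, 0.0541% and 0.0655% in the BIT mice (log2 -1.75 ± 0.37, SE, edgeR adjusted p = 0.000974). TRAV13–TRAJ52 made up 0.217%, 0.322%, 0.261% and 0.361% in β5t-KO mice and 0.103%, 0.107%, 0.0704% and 0.105% in the BIT mice (log2 -1.42 ± 0.33, SE, edgeR adjusted p = 0.00291). Neither pair overlapped between the groups, while TRAV14–TRAJ52 did (log2 -0.95 ± 0.26, SE, edgeR adjusted p = 0.0195). Of the 13 TRAJ52 pairs tested 10 had negative log2 differences, with a median of -0.40 against 0.07 over all 585 pairs. TRAJ52 as a whole was lower in the BIT mice, so its pairs in part repeat that result. None of them passed in the fit below that takes V and J usage into account.

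TRAV12 took part in 4 of the 12 called pairs, 2 lower and 2 higher, and in 43 of the 585 pairs tested. TRAV12–TRAJ22 made up 1.55%, 1.61%, 1.66% and 1.69% of clonotypes in β5t-KO mice and 1.16%, 1.19%, 1.15% and 1.07% in the BIT mice (log2 -0.51 ± 0.14, SE, edgeR adjusted p = 0.0275). TRAV12–TRAJ28 averaged 0.404% ± 0.165 in the β5t-KO mice (SD, n = 4) and 0.232% ± 0.0214 in the BIT mice (SD, n = 4), and β5t-KO 2, with 1 such clonotype, lay below the BIT mice (log2 -1.01 ± 0.23, SE, edgeR adjusted p = 0.00291). TRAV12–TRAJ31 made up 0.791%, 0.643%, 0.771% and 0.602% in β5t-KO mice and 1.09%, 1.30%, 0.953% and 1.12% in the BIT mice (log2 0.55 ± 0.17, SE, edgeR adjusted p = 0.0492). TRAV12 as a whole was used by 23.0% of clonotypes in the β5t-KO mice and 22.7% in the BIT mice. The TRAV12–TRAJ31 call was lost on leaving out any 1 mouse but BIT 4 (log2 0.49 to 0.60, edgeR adjusted p = 0.0697 to 0.231). The TRAV12–TRAJ22 call was lost without β5t-KO 1, 3 or 4 or BIT 1 or 5 (log2 -0.55 to -0.48, edgeR adjusted p = 0.0537 to 0.231) and in 7 of 12 other alternatives, among them molecules (log2 -0.25). That of TRAV12–TRAJ28 was lost without β5t-KO 1 (log2 -0.89, edgeR adjusted p = 0.153) or β5t-KO 3 (log2 -1.07, edgeR adjusted p = 0.0645). TRAV14–TRAJ22 fell (log2 -0.63 ± 0.16, SE, edgeR adjusted p = 0.00703), from 1.09%, 1.61%, 1.25% and 1.57% to 0.723%, 1.04%, 0.801% and 0.760%, and TRAV3–TRAJ45 fell (log2 -0.82 ± 0.21, SE, edgeR adjusted p = 0.0107).

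TRAV7–TRAJ2 rose (log2 1.71 ± 0.44, SE, edgeR adjusted p = 0.0113) but owed much of its size to BIT 4, at 0.384% against 0.107% to 0.118% in the other BIT mice and 0% to 0.161% in β5t-KO mice. Without BIT 4 the log2 difference was 1.07 (edgeR adjusted p = 0.36). TRAV12–TRAJ6 (log2 0.75, edgeR adjusted p = 0.0391) and TRAV7–TRAJ4 (log2 0.89, edgeR adjusted p = 0.0451) rose and were also lost without BIT 4, at 0.55 and 0.49. TRAV7–TRAJ2 was lost without β5t-KO 4 too, and TRAV7–TRAJ4 without β5t-KO 2 (edgeR adjusted p = 0.0518 for both). The remaining pair, TRAV17–TRAJ39 (edgeR adjusted p = 0.0404), was higher in the BIT mice, with 0 clonotypes in each β5t-KO mouse, and its call was lost without any 1 of the 4 β5t-KO mice or BIT 4 (edgeR adjusted p = 0.0518 to 0.304). The calls leaned on the deeper β5t-KO mice. Without β5t-KO 3 only TRAV17–TRAJ52 of the 12 pairs was called (1 pair in all), and without β5t-KO 1 only TRAV13–TRAJ52 and TRAV14–TRAJ22 (2 pairs in all).

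To ask whether a V and a J gene were joined more often than the usage of each would give, usage of the V subgroup and the J gene in each mouse was entered as an offset. In this fit 1 of 585 TRAV–TRAJ pairs passed (0.171%), TRAV17–TRAJ39. It was found as 11, 5, 11 and 9 clonotypes in BIT mice 1, 2, 4 and 5, 36 of 77001 in all. It was found as 0 of 16383 in the β5t-KO mice. With clonotypes pooled over the mice of a group, a floor of 3 clonotypes puts the β5t-KO share at up to 0.0183%. The pooled BIT share was 2.55-fold that floor, which is a description of pooled clonotypes and not a bound over mice. WT mice held 0.0253% ± 0.0216 (SD, n = 4). The call (edgeR adjusted p = 0.0183) was lost without β5t-KO 1 (edgeR adjusted p = 0.49), β5t-KO 3 (0.27) or BIT 4 (0.10), and intervals and floors cover counting error only. TRAV12–TRAJ31 (log2 0.45) and TRAV13–TRAJ22 (log2 0.67) had the next smallest p and did not pass (edgeR adjusted p = 0.155 for both). The most widely shared nucleotide clonotype of the leading pairs is given below with N nucleotides in capitals, as an example of each pair.
TRAV17–TRAJ52, 3 BIT and 3 β5t-KO mice: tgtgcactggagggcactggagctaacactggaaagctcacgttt
TRAV13–TRAJ52, 4 BIT and 4 β5t-KO mice: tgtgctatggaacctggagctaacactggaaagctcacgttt
TRAV12–TRAJ28, 3 BIT and 4 β5t-KO mice: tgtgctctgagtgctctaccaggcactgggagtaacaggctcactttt
TRAV12–TRAJ22, 4 BIT and 2 β5t-KO mice: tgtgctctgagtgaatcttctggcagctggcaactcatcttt
TRAV12–TRAJ31, 4 BIT and 1 β5t-KO mouse: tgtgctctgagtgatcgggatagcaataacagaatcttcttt
TRAV17–TRAJ39, 3 BIT and 0 β5t-KO mice: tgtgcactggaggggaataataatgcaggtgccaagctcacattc
None of these 6 sequences held an N nucleotide, but they were picked for being shared and do not represent the other joins of their pairs. The TRAV12–TRAJ28 and TRAV13–TRAJ52 clonotypes were shared but carried more molecules in the β5t-KO mice, 550 against 40 and 776 against 119.

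**Figure D2:**
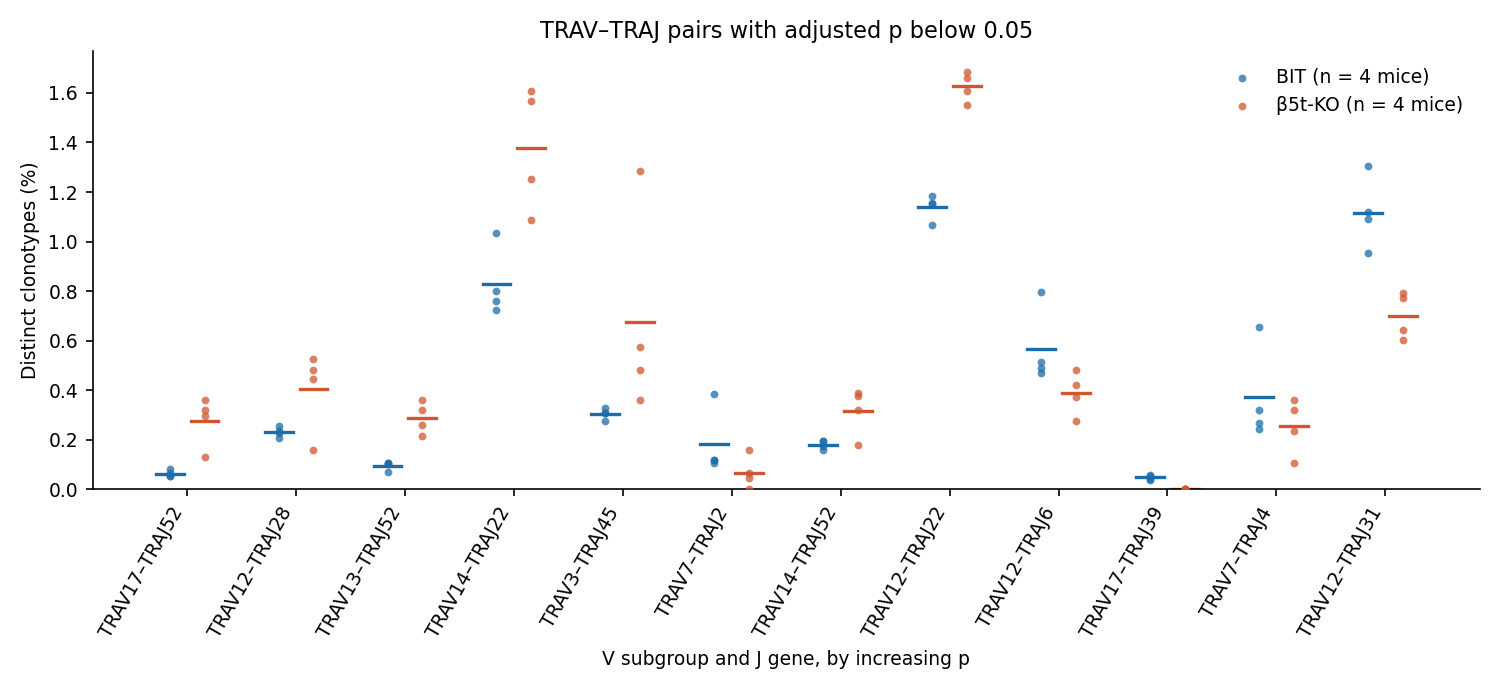
Share of distinct TCRα clonotypes (vertical axis, %) of the 12 TRAV–TRAJ pairs with an edgeR adjusted p below 0.05, in each BIT mouse (blue, n = 4) and β5t-KO mouse (orange, n = 4), with group means as bars. TRAV17–TRAJ52, TRAV13–TRAJ52 and TRAV12–TRAJ22 lie lower in every BIT mouse than in any β5t-KO mouse, and the BIT 4 point lies apart at TRAV7–TRAJ2.

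CDR3α was shorter in the BIT than in the β5t-KO mice. The mean length, counted from the conserved cysteine to the conserved phenylalanine, was 13.74, 13.86, 13.74 and 13.81 residues in β5t-KO mice 1 to 4 and 13.63, 13.58, 13.62 and 13.62 in BIT mice 1, 2, 4 and 5. The groups did not overlap and differed by -0.173 residues (exact permutation p = 0.0286, two-sided, adjusted p = 0.0524). WT mice averaged 13.57 ± 0.037 residues (SD, n = 4) and β5i-KO mice 13.59 ± 0.059 (SD, n = 5), near the BIT mice. Of 14 length classes 5 passed (35.7%), with 8, 10, 11 and 12 residues more frequent in the BIT mice and 16 residues less frequent. CDR3α of 10 residues made up 1.07%, 0.804%, 1.12% and 0.722% of clonotypes in β5t-KO mice and 1.79%, 1.84%, 1.62% and 1.78% in the BIT mice (log2 0.74 ± 0.15, SE, edgeR adjusted p = 4.11e-05). CDR3α of 11 residues rose from 3.16% ± 0.937 (SD, n = 4) to 4.91% ± 0.177 (SD, n = 4) and that of 12 residues from 12.6% ± 0.253 to 14.4% ± 0.573 (SD, n = 4 each). CDR3α of 16 residues fell from 8.49% ± 0.946 to 6.93% ± 0.317 (SD, n = 4 each). The class of 8 residues held 0 to 6 clonotypes per β5t-KO mouse and 11 to 39 per BIT mouse, and its call was lost without β5t-KO 1 (log2 0.96, edgeR adjusted p = 0.16). By J gene, the mean CDR3α was shorter in the BIT mice for 31 of the 35 TRAJ genes with at least 20 clonotypes in at least 3 mice of each group, with the largest difference for TRAJ6 (-0.392 residues) and the highest for TRAJ52 (0.064 residues).

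The difference in length was larger within TRAV12 than among the pooled other V genes, a split that was chosen after the values were seen and so carries no test. Among TRAV12 clonotypes the mean length was 13.95, 14.13, 13.92 and 14.11 residues in β5t-KO mice and 13.44, 13.39, 13.56 and 13.42 in the BIT mice. Among all other clonotypes it was 13.68, 13.78, 13.68 and 13.72 in β5t-KO mice and 13.69, 13.63, 13.64 and 13.68 in the BIT mice, with overlap. CDR3α of at most 12 residues made up 14.2% ± 2.68 of TRAV12 clonotypes in the β5t-KO mice (SD, n = 4) and 28.6% ± 2.499 in the BIT mice (SD, n = 4), against 29.6% in WT and 29.8% in β5i-KO mice. Outside TRAV12 such short CDR3α made up 17.7% ± 0.634 in the β5t-KO mice and 19.5% ± 0.770 in the BIT mice (SD, n = 4 each), also without overlap. TRAV12 clonotypes of β5t-KO mice thus carried longer CDR3α than the rest of their repertoire and those of BIT mice shorter. With TRAV12 left out, 1 of 13 length classes was called, the 8-residue class.

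**Figure D3:**
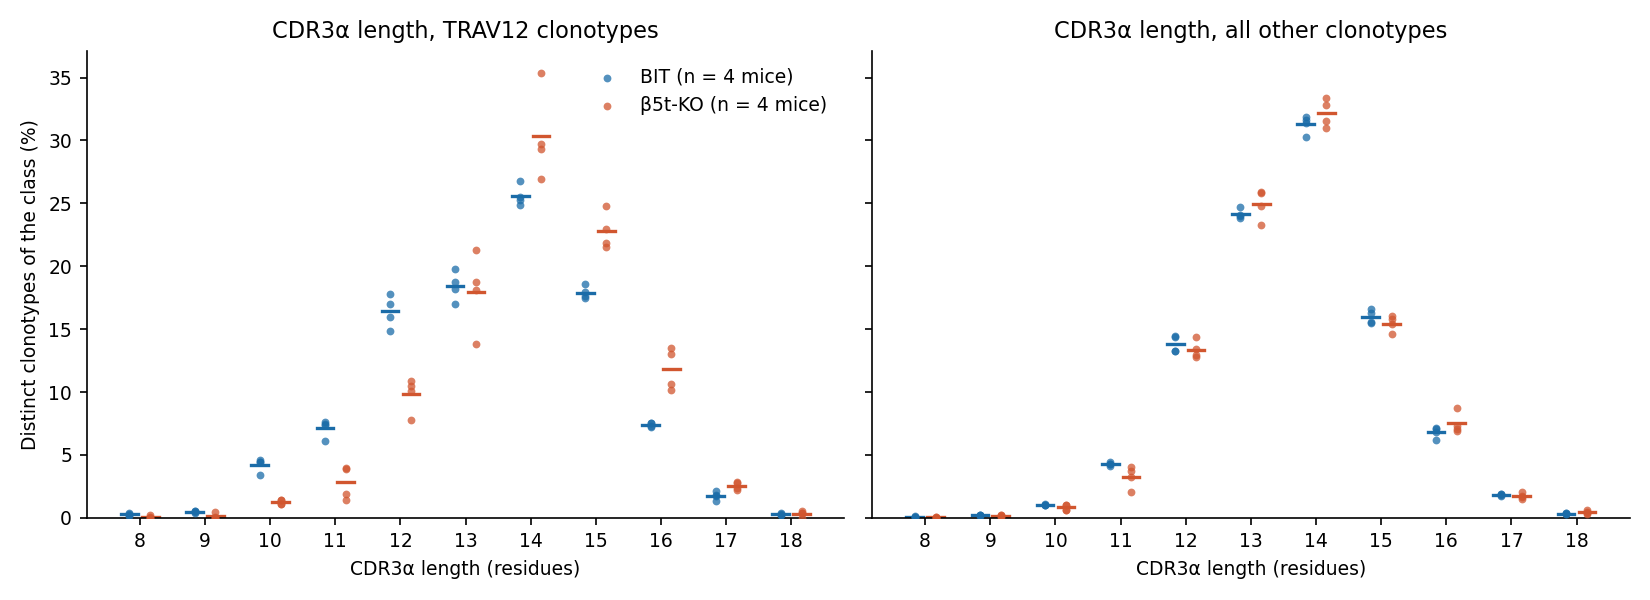
Share of distinct clonotypes (vertical axis, %) with each CDR3α length from 8 to 18 residues, among TRAV12 clonotypes (left) and all other clonotypes (right), in each BIT mouse (blue, n = 4) and β5t-KO mouse (orange, n = 4), with group means as bars. Among TRAV12 clonotypes the BIT mice lie above the β5t-KO mice at 10, 11 and 12 residues and below them at 14 to 17, and among the others the groups overlap at most lengths.

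The V end of TCRα was trimmed more in the BIT than in the β5t-KO mice. On average 1.95, 1.67, 1.93 and 1.8 nucleotides were missing from the V end in β5t-KO mice and 2.20, 2.15, 2.20 and 2.21 in the BIT mice, with no overlap (exact permutation p = 0.0286, two-sided, n = 4 and 4, adjusted p = 0.0524). WT mice had lost 2.16 ± 0.060 nucleotides (SD, n = 4) and β5i-KO mice 2.17 ± 0.011 (SD, n = 5), near the BIT mice. Of 14 classes of V trimming, a test added after the data were seen, 6 passed (42.9%). The untrimmed class fell from 43.3% ± 2.65 (SD, n = 4) to 37.6% ± 0.333 (SD, n = 4) of nucleotide clonotypes (log2 -0.16 ± 0.018, SE, edgeR adjusted p = 8.27e-15), and the classes of 5, 6, 7, 8 and 9 nucleotides rose. Trimming of 9 nucleotides rose most, from 0.671% ± 0.220 to 1.43% ± 0.068 (SD, n = 4 each, log2 0.83 ± 0.12, SE, edgeR adjusted p = 8.64e-10). TMM called 7, 4 higher and 3 lower, and DESeq2 6, 3 higher and 3 lower. With TRAV12 left out edgeR called 0 of the 14 classes, with 3 at an unadjusted p below 0.05, and the log2 differences were -0.03 for the untrimmed class and 0.34 for 9 nucleotides, while that of 7 nucleotides turned to -0.0475.

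By V subgroup, V trimming was higher in the BIT mice in 11 of 14 subgroups with a median difference of 0.082 nucleotides, and TRAV12 was the subgroup whose groups did not overlap. TRAV12 had lost 1.93, 1.26, 1.87 and 1.64 nucleotides on average in β5t-KO mice and 2.87, 2.85, 2.67 and 2.84 in the BIT mice, against 2.63 ± 0.122 in WT (SD, n = 4) and 2.70 ± 0.060 in the β5i-KO mice (SD, n = 5). The other V subgroups together had lost 1.89 ± 0.082 in the β5t-KO mice and 2.00 ± 0.045 in the BIT mice (SD, n = 4 each). TRAV12 clonotypes with a start other than CALSDR had lost 2.06 ± 0.267 nucleotides in the β5t-KO mice and 3.01 ± 0.095 in the BIT mice (SD, n = 4 each), with no overlap. In out-of-frame TCRα clones, which are not selected on their protein, mean V trimming was 2.06, 1.82, 2.23 and 2.18 in the β5t-KO mice and 2.22, 2.17, 2.20 and 2.21 in the BIT mice (exact permutation p = 0.286, two-sided, n = 4 and 4). The groups overlapped there, with 62 to 3181 such clones per mouse.

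**Figure D4:**
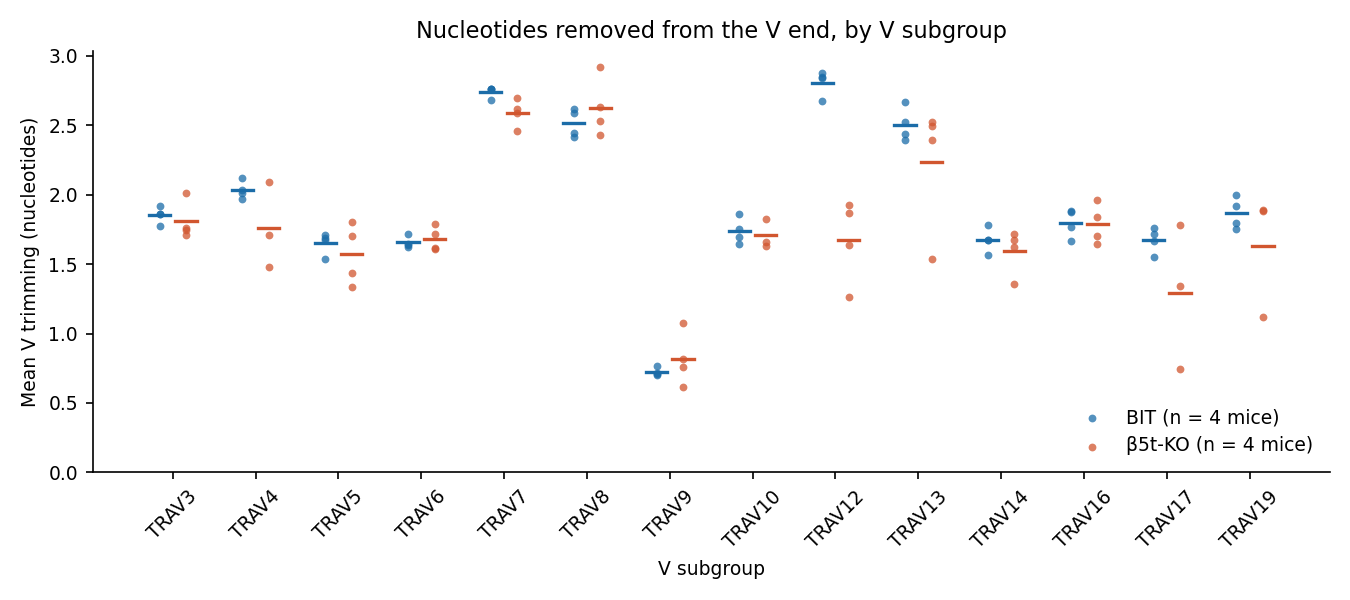
Mean number of nucleotides removed from the V end (vertical axis) of in-frame TCRα nucleotide clonotypes for 14 V subgroups, in each BIT mouse (blue, n = 4) and β5t-KO mouse (orange, n = 4, fewer where a mouse held under 20 clonotypes of the subgroup), with group means as bars. TRAV12 stands at 2.67 to 2.87 in BIT and 1.26 to 1.93 in β5t-KO mice, and in the other subgroups the groups overlap.

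The J end of TCRα was trimmed by 2.74, 2.86, 2.8 and 2.69 nucleotides on average in β5t-KO mice and by 2.96, 2.93, 2.98 and 2.96 in the BIT mice. The groups did not overlap (exact permutation p = 0.0286, two-sided, n = 4 and 4, adjusted p = 0.0524). Of 19 classes of J trimming 4 passed (21.1%), also in a test added after the data were seen, and DESeq2 and TMM each called 5, 3 higher and 2 lower. The untrimmed class was lower in the BIT mice (log2 -0.09 ± 0.019, SE, edgeR adjusted p = 0.00115), a direction that turned when molecules were counted (log2 0.02), and the classes of 7, 11 and 13 nucleotides were higher (log2 0.29, 0.79 and 1.28). The call of 7 nucleotides was lost without β5t-KO 3 (log2 0.21, edgeR adjusted p = 0.069). J trimming was higher in the BIT mice for 24 of 36 TRAJ genes. Inside TRAV12 it was 3.29 against 3.01 nucleotides with overlap, and outside TRAV12 2.85 against 2.70 without overlap. V and J ends both untrimmed with no N nucleotide, the joins closest to germline, made up 3.68% ± 0.552 of nucleotide clonotypes in the β5t-KO mice and 2.74% ± 0.105 in the BIT mice (SD, n = 4 each).

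The residues in the centre of CDR3α, taken as CDR3 without the 4 residues at each end, were compared as shares of all central residues. Of 20 residues 4 passed (20%), with aspartate, threonine and arginine lower and glycine higher in the BIT mice. Aspartate made up 5.51%, 5.84%, 5.48% and 5.94% in β5t-KO mice and 4.86%, 4.93%, 4.63% and 4.92% in the BIT mice, without overlap (log2 -0.21 ± 0.036, SE, edgeR adjusted p = 9.16e-05). Within TRAV12 it made up 9.39% ± 1.44 in the β5t-KO mice and 6.85% ± 0.207 in the BIT mice, and outside TRAV12 4.54% ± 0.295 and 4.27% ± 0.159 (SD, n = 4 each). Glycine, the residue with no side chain, rose from 20.3% ± 0.600 to 21.2% ± 0.173 (SD, n = 4 each, log2 0.06 ± 0.016, SE, edgeR adjusted p = 0.00762). Residue shares sum to a fixed total, so a fall in some residues raises the shares of others. On simulated counts with 1.5-fold changes this fit gave 8 false calls among 12. Threonine fell from 7.76% to 7.29% (log2 -0.11 ± 0.025, SE, edgeR adjusted p = 0.00273) but not by molecules (log2 0.01).

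Arginine fell from 2.59%, 3.02%, 2.59% and 2.62% in β5t-KO mice to 2.44%, 2.31%, 2.42% and 2.43% in the BIT mice (log2 -0.12 ± 0.044, SE, edgeR adjusted p = 0.0443). This call was lost without any 1 of β5t-KO 1, 2, 3 or 4 or BIT 1, 2 or 5, at -0.14 to -0.11, and its direction turned when TRAV12 (log2 0.13) or the CALSDR start (log2 0.11) was left out. Within TRAV12 arginine made up 4.91% in the β5t-KO mice and 2.84% in the BIT mice, and outside TRAV12 2.02% and 2.27%. By class, the 2 negative residues divided, with aspartate lower and glutamate not called (log2 0.08), and the 4 aliphatic and 3 aromatic residues held 0 calls. The net charge of the centre was less negative in the BIT mice, at -0.313 against -0.343 on average, with no overlap (exact permutation p = 0.0286, two-sided, n = 4 and 4, adjusted p = 0.0524). Weighted by molecules the direction turned, to a difference of -0.00771. Mean Kyte-Doolittle hydrophobicity was -1.23 in BIT and -1.24 in β5t-KO mice with overlap (exact permutation p = 0.743, two-sided, n = 4 and 4), and the share of TCRα clonotypes with a central cysteine overlapped too (exact permutation p = 0.886, two-sided, n = 4 and 4).

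N addition was compared in nucleotide clonotypes. In TCRα 28.5%, 29.3%, 27.2% and 30.4% of clonotypes held no N nucleotide in β5t-KO mice and 23.9%, 26.7%, 24.5% and 24.4% in the BIT mice. The groups did not overlap (exact permutation p = 0.0286, two-sided, n = 4 and 4, adjusted p = 0.0524), and the share was lower in the BIT mice in 13 of 14 V subgroups. WT mice held 26.6% ± 2.34 (SD, n = 4), a range that reached into both groups. The share was higher in shallower WT libraries, at 29.7%, 27.1%, 25.3% and 24.4% with 2454, 5784, 15092 and 16876 TCRα clonotypes. β5i-KO mice held 23.9% to 28.1%, with the lowest shares in their deepest libraries. The set-aside BIT replicate 3, with 455 clonotypes, held 32.2%. Depth moved with genotype, and what it contributed to this difference was not tested. Over 15 classes of N number edgeR called 0 (0%), with 4 (26.7%) at an unadjusted p below 0.05, and DESeq2 called 0. The class without N nucleotides (log2 -0.20) and that with 2 (log2 0.11) lay closest to the threshold, both at an edgeR adjusted p of 0.0521. Weighted by molecules the direction turned, with 0.485 percentage points more molecules without N nucleotides in the BIT mice. The mean number of N nucleotides was 2.36 in BIT and 2.25 in β5t-KO mice with overlap (exact permutation p = 0.0857, two-sided, n = 4 and 4).

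In TCRβ, where N nucleotides can lie on both sides of TRBD, 20.2%, 20.1%, 18.99% and 16.1% of clonotypes held no N nucleotide in β5t-KO mice 1 to 4. In BIT mice 1, 2, 4 and 5 the shares were 15.7%, 16.5%, 15.5% and 15.1%. β5t-KO 4 lay below BIT 2 and above the other BIT mice. The class was lower in the BIT mice in edgeR (log2 -0.29 ± 0.040, SE, adjusted p = 2.59e-10), and the class with 4 N nucleotides was higher (log2 0.14 ± 0.044, SE, edgeR adjusted p = 0.0123), 2 of 16 classes (12.5%). The call of the class without N nucleotides was kept in each of 19 alternatives at -0.34 to -0.23, whereas that of 4 N nucleotides was lost without β5t-KO 1 (log2 0.09, edgeR adjusted p = 0.50) or BIT 4 (log2 0.12, edgeR adjusted p = 0.052). The permutation test over mice did not pass for the share without N nucleotides (exact permutation p = 0.0571, two-sided, n = 4 and 4, adjusted p = 0.686 over 12 TCRβ measures). The share was lower in the BIT mice for 10 of 12 TRBJ genes and 15 of 18 TRBV genes. In out-of-frame TCRβ clones it was 15.5% ± 3.22 in the β5t-KO mice and 13.3% ± 1.23 in the BIT mice (SD, n = 4 each, exact permutation p = 0.314, two-sided), with 26 to 947 clones per mouse.

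**Figure D5:**
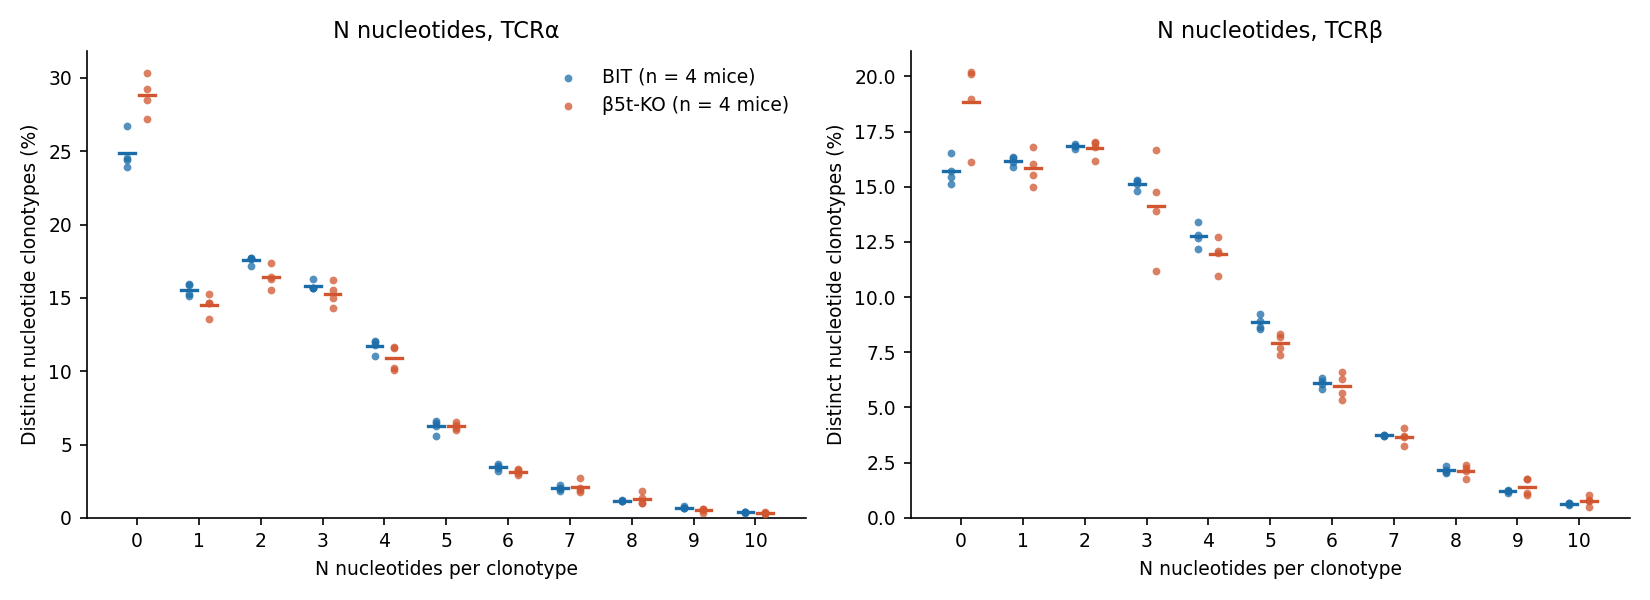
Share of nucleotide clonotypes (vertical axis, %) with each number of N nucleotides from 0 to 10 for TCRα (left) and TCRβ (right), in each BIT mouse (blue, n = 4) and β5t-KO mouse (orange, n = 4), with group means as bars. At 0 the BIT mice lie below the β5t-KO mice in TCRα (23.9% to 26.7% against 27.2% to 30.4%), and in TCRβ the groups overlap through β5t-KO 4.

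J gene usage of TCRβ was compared in the same way. Of 12 TRBJ genes 2 passed (16.7%), both in the TRBJ2 cluster, and 0 were called when molecules or reads were counted, when libraries were thinned or after TMM normalisation. TRBJ2-3 (chromosome 6, 41520157 to 41520205) was used by 7.89%, 10.4%, 8.39% and 8.21% of clonotypes in β5t-KO mice and 9.25%, 9.28%, 9.65% and 9.79% in the BIT mice (log2 0.20 ± 0.058, SE, edgeR adjusted p = 0.0142). TRBJ2-1 (41519688 to 41519737) was used by 14.7%, 13.02%, 15.8% and 15.7% in β5t-KO mice and 13.2%, 13.7%, 13.96% and 13.8% in the BIT mice (log2 -0.16 ± 0.049, SE, edgeR adjusted p = 0.0157). In both genes β5t-KO 2 lay on the other side of the BIT mice from the remaining β5t-KO mice. Without β5t-KO 3 both calls were lost (TRBJ2-3 0.22, TRBJ2-1 -0.12), TRBJ2-3 also without β5t-KO 1 (0.16), and TRBJ2-1 without β5t-KO 4 (-0.14) or BIT 1 (-0.14). TRBJ1-3 had the next smallest p (log2 -0.15, edgeR adjusted p = 0.517), and the TRBJ2 cluster as a whole was used by 72.1% ± 0.983 of clonotypes in the β5t-KO mice and 71.8% ± 2.29 in the BIT mice (SD, n = 4 each). The shares of 0 of 12 TRBJ genes were free of overlap.

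Of 248 TRBV–TRBJ pairs edgeR called 0 (0%), with 12 (4.84%) at an unadjusted p below 0.05, and DESeq2 called 0. The smallest p belonged to TRBV2–TRBJ2-1, at 0.922% ± 0.145 in the β5t-KO mice and 0.490% ± 0.121 in the BIT mice (SD, n = 4 each, log2 -0.82, edgeR adjusted p = 0.443). TRBV2–TRBJ1-6 (log2 -1.09) and TRBV19–TRBJ1-1 (log2 0.57) followed, both at an edgeR adjusted p of 0.767. With the replicate number as a block edgeR called 6 pairs (2.42%), 5 higher and 1 lower, the last being TRBV2–TRBJ2-1 (log2 -0.99, edgeR adjusted p = 0.00971). Same-numbered mice correlated at 0.239, 0.125 and 0.144 in these pairs, but were not all above 0.1 in any of the other 5 results examined. Beyond V and J usage 1 of 248 pairs passed (0.403%), TRBV12-2–TRBJ1-2 (log2 1.45 ± 0.30, SE, edgeR adjusted p = 0.00131), at 0.201%, 0%, 0.076% and 0% of clonotypes in β5t-KO mice and 0.342%, 0.206%, 0.202% and 0.159% in the BIT mice. Its call was lost without β5t-KO 3 (log2 1.09, edgeR adjusted p = 0.85). CDR3β length was alike in mean (13.9 residues in both groups, exact permutation p = 0.886, two-sided, n = 4 and 4), and edgeR called 0 of 14 length classes (0%), with 1 (7.14%) at an unadjusted p below 0.05, and DESeq2 called 0.

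In the centre of CDR3β 1 of 20 residues passed (5%), tryptophan, which the DNA of TRBD2 can encode. Tryptophan made up 3.17%, 2.77%, 3.05% and 2.90% of central residues in β5t-KO mice and 2.36%, 2.38%, 2.95% and 2.41% in the BIT mice (log2 -0.28 ± 0.062, SE, edgeR adjusted p = 0.00232). BIT 4 lay among the β5t-KO mice, and the other 3 BIT mice lay below all of them. The call was lost without β5t-KO 1 (log2 -0.25, edgeR adjusted p = 0.071). The motif DWG lay in the centre of 7.37% ± 0.318 of clonotypes in the β5t-KO mice and 6.004% ± 0.930 in the BIT mice (SD, n = 4 each), with 7.40% in BIT 4, and tryptophan without this motif in 9.74% ± 0.847 and 8.60% ± 0.785. All 3 aromatic residues had negative log2 differences, and tyrosine (-0.11) and phenylalanine did not pass. Hydrophobic residues at both CDR3β positions 6 and 7 occurred in 1.48% ± 0.151 of β5t-KO and 1.40% ± 0.120 of BIT clonotypes (SD, n = 4 each, exact permutation p = 0.429, two-sided).

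Over the summary measures, the BIT and β5t-KO mice did not overlap for 6 of 11 in TCRα (54.5%) and 0 of 12 in TCRβ (0%), and no measure passed after adjustment in either chain. Because the exact permutation p cannot fall below 0.0286 with 4 mice against 4, no measure can pass this adjustment alone. The 6 were mean length, share without N nucleotides, V trimming, J trimming, J distance and net charge. With the set-aside BIT replicate 3 (455 TCRα clonotypes) 4 of them overlapped. It held 32.2% without N, J trimming of 2.54, a J distance of 34.2 kb and a net charge of -0.374. Its length (13.65) and V trimming (2.17) lay on the side of the other BIT mice. β5t-KO 2, with 622 TCRα clonotypes, was kept. The rank correlation of V and J position along the locus (-0.412 in BIT and -0.426 in β5t-KO mice) and the normalised mutual information of V and J, which measures how far the choice of V goes with that of J (0.183 and 0.189), overlapped in TCRα. In TCRβ the mutual information was 0.122 in BIT and 0.124 in β5t-KO mice. Replicates were individual mice, so these tests measure the spread between mice.

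The sort was checked with V and J joins that T cells outside the conventional CD8 lineage use. Their CDR3 was not checked, so a clonotype counted here need not carry an invariant chain. TRAV11 or TRAV11D joined to TRAJ18, as in the invariant chain of NKT cells, was found as 0, 0, 1 and 0 clonotypes in β5t-KO mice and 6, 0, 3 and 1 in the BIT mice. TRAV1 joined to TRAJ33, as in the chain of MAIT cells, was found as 1, 1, 3 and 0 and as 6, 4, 4 and 8 clonotypes. Each made up less than 0.2% of clonotypes in any mouse. TRDV genes, shared with the TCRδ locus, made up 0.854% ± 0.213 of TCRα clonotypes in the β5t-KO mice and 0.771% ± 0.096 in the BIT mice (SD, n = 4 each), with overlap.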

How the data were processed

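TCRα and TCRβ libraries were made from sorted CD8 T cells with a mouse TCR profiling kit that tags each cDNA with a molecular identifier, and the authors assembled clones with MiXCR (version and settings not given in the sources used here). The deposited tables list per clone the V, D and J genes, the CDR3 and counts of reads and of unique molecules, which are raw counts. The fraction columns the authors deposited beside them were not used. The labels name the build mm10, and the tables hold no coordinates, so J gene positions were taken from GRCm39 and its annotation.

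Clones with a frameshift in CDR3 were set apart as out-of-frame, and clones with a stop but no frameshift were left out of both sets. The first listed V and J genes were used. Clonotypes were counted per feature and compared in edgeR 4.0.16 (R 4.3.3) by the quasi-likelihood test with Benjamini-Hochberg adjustment, on 17 libraries (4 WT, 5 β5i-KO, 4 β5t-KO and 4 BIT) that share 1 estimate of spread, scaled to library size, for features with at least 5 clonotypes in at least 4 libraries. A log2 difference is BIT minus β5t-KO and weights mice by depth, so it can differ from the ratio of means. Summary measures were compared by exact two-sided permutation (SciPy 1.17.1), adjusted within each chain. The centre of CDR3 left out 4 residues at each end. Reads numbered 1999451 to 6827513 per TCRα and 614169 to 1962530 per TCRβ library of the 8 mice. The molecules were thinned to 13519 (TCRα) and 7669 (TCRβ) per library as an alternative, and other alternatives were molecules or reads as the unit, DESeq2 1.42.0, TMM, other filters, a block for the replicate number and the omission of each mouse. Leaving out TRAV12 or the CALSDR start, the V usage standard and both trimming results were added after the data were seen.

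The members and lists were chosen with earlier results of these data known. Named features were all called J genes, lengths, N numbers and residues, the pairs with the smallest p, or the 3 smallest p where fewer than 3 were called. On simulated counts for BIT against β5t-KO, 8 of 8 TRAJ genes changed 2-fold were recovered among 43, with 4 false calls among 12, and 95 of 200 of 585 TRAV–TRAJ pairs, with 5 false calls among 100. At 1.5-fold 7 of 8 TRAJ genes (2 false among 9 calls), 26 of 200 pairs (3 among 29), 1 of 2 of 14 CDR3α lengths (0 among 1) and 4 of 4 of 20 CDR3α residues (8 among 12) were recovered.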

Additional observations from a re-analysis of the deposited data

Results flagged for a closer look

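In 18 of 128 groups of 4 mice examined, 1 mouse lay further from the others than the 95% limit allows, where chance gives about 1 in 20 groups. BIT 4 was the mouse in 11 of the 18. In TCRα its J distance was 36.7 kb (34.4 to 34.8 in the other BIT mice), its share of clonotypes with a central cysteine 0.763% (0.0961 to 0.167), its TRAJ6 share 2.44% (1.68 to 1.8) and its central threonine 6.96% (7.36 to 7.44). Its shares were 0.0704% for TRAV13–TRAJ52 (0.103 to 0.107), 0.384% for TRAV7–TRAJ2 (0.107 to 0.118) and 0.796% for TRAV12–TRAJ6 (0.472 to 0.514). In TCRβ its central cysteine share was 0.627% (0.0797 to 0.103), its net charge -0.419 (-0.459 to -0.453), its share with hydrophobic residues at positions 6 and 7 1.58% (1.32 to 1.36) and its central tryptophan 2.95% (2.36 to 2.41).

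β5t-KO 2 lay apart in the mutual information of TRAV and TRAJ (0.202, against 0.183 to 0.185), in CDR3β hydrophobicity (-1.08, against -1.04) and in central CDR3α threonine (7.30%, against 7.86 to 7.95) and arginine (3.02%, against 2.59 to 2.62). β5t-KO 4 lay apart in central CDR3α glycine (19.4%, against 20.5 to 20.8) and in J trimming by 7 nucleotides (4.25%, against 3.05 to 3.25) and by 11 (0.0574%, against 0.305 to 0.337). No cause of these values was tested.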

How the results depend on the processing

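Counts of features past the threshold moved by over 1.5 times as follows, and the cause was not tested. TRAJ genes called numbered 4, and 14 by molecules, 9 by reads, 7 after thinning, 2 without TRAV12, 1 with only the 8 libraries and 1 to 5 with 1 mouse left out (2 without β5t-KO 1, 1 without β5t-KO 3). TRBJ genes called numbered 2, and 0 by molecules, reads, thinning or TMM and 0 to 2 with 1 mouse left out. TRAV–TRAJ pairs called numbered 12, and 7 with clones of at least 2 molecules, 6 after thinning, 6 with single TRAV genes, 3 by DESeq2 and 1 to 12 with 1 mouse left out. Beyond V and J usage the 1 TRAV–TRAJ pair became 7 by molecules, 4 by reads, 0 after thinning, 3 with nucleotide CDR3, 2 with single TRAV genes, 3 by TMM and 0 to 1 with 1 mouse left out, and the 1 TRBV–TRBJ pair became 0 by molecules, reads or thinning and 0 to 1 with 1 mouse left out. CDR3α lengths called numbered 5, and 8 after thinning, 1 without TRAV12 and 4 to 7 with 1 mouse left out, and the 0 CDR3β lengths became 1 with nucleotide CDR3 and 0 to 1 with 1 mouse left out. CDR3α residues called numbered 4, and 7 by molecules, 1 without TRAV12, 2 with only the 8 libraries and 3 to 5 with 1 mouse left out. The 1 CDR3β residue became 0 by reads or with only the 8 libraries, 4 with 3 residues left out at each end and 0 to 5 with 1 mouse left out (0 without β5t-KO 1, 5 without BIT 4). The 0 TCRα N numbers became 3 by molecules, 2 by reads, 1 after thinning, without TRAV12, without CALSDR or with no filter, 3 with only the 8 libraries and 0 to 2 with 1 mouse left out, and the 2 TCRβ N numbers became 1 by molecules, TMM or DESeq2 and 1 to 3 with 1 mouse left out. V trimming classes went from 6 to 0 without TRAV12 and were 6 to 7 with 1 mouse left out, and J trimming classes 3 to 5. TCRα summary measures past the adjusted threshold went from 0 to 7 without CALSDR. The smallest exact permutation p, 0.0286, passes the adjustment only when enough of the 11 measures reach it, so this count moves in a jump.

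Same-numbered mice deviated together (every correlation over 0.1) in TRBV–TRBJ pairs (0.239, 0.125 and 0.144) but in none of the other 5 results examined (-0.554 to 0.615), and the labels name nothing that a number shares, so the mice were not taken as paired. With the replicate number as a replicate block, the counts were 5 TRAJ genes, 2 TRBJ genes, 6 TRAV–TRAJ and 6 TRBV–TRBJ pairs, 0 TRAV–TRAJ and 1 TRBV–TRBJ pair beyond usage, 4 CDR3α and 0 CDR3β lengths, 5 CDR3α and 4 CDR3β residues, and 2 TCRα and 2 TCRβ N numbers.

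Differences, as BIT minus β5t-KO, turned their sign in 34 of the single-value alternatives that kept every mouse. On the log2 scale these were central CDR3α threonine by molecules (0.01), arginine with 3 residues left out at each end (0.0087), without TRAV12 (0.13) or without CALSDR (0.11), V trimming by 7 nucleotides without TRAV12 (-0.0475) and the untrimmed J class by molecules (0.0180) or reads (0.0251). For TCRα they were mean N nucleotides by molecules (-0.00376) or thinning (-0.014), the share without N by molecules (0.485 points), the V and J rank correlation by molecules (-0.00568) or with 1 V gene listed (-0.010), net charge by molecules (-0.00771), the cysteine share by molecules (0.122), at least 2 molecules (0.116), thinning (0.0706) or BIT 3 included (0.0097), and hydrophobicity after thinning (-0.00189), with BIT 3 (-0.00828), without TRAV12 (-0.00869) or without CALSDR (-0.017). For TCRβ they were hydrophobic positions 6 and 7 by molecules (0.149), hydrophobicity by molecules (0.0039), net charge by molecules (-0.00522), at least 2 molecules (-0.0030), thinning (-0.00462), nucleotide CDR3 (-0.000749), BIT 3 (-0.011) or the same V usage (-0.00737), the TRBJ2 share at 2 molecules (0.0426) or thinning (0.119), mutual information at 2 molecules (0.00098), and length with BIT 3 (0.00079) or the same V usage (0.013). With 1 mouse left out 18 more turned, all of them summary measures whose groups overlapped. Of the other single-value alternatives 1101 kept direction and side of the threshold, 179 lost the call and 24 gained it. The β5t-KO libraries, with 384 to 7656 clonotypes, limit the depth of every comparison.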
